A study of Mus musculus with 32 samples.

Results

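Heat shock proteins and chaperones, together with the chaperonin and prefoldin subunits, were followed from the cell body into the dendrites of single neurons. The members were all genes of the combined 3′UTR table whose symbols begin with Hspa to Hsph or Dnaja to Dnajc and a number, with Hsp90, Cct and a number, or with Pfdn and a number, plus Hsph1 and Tcp1, and without pseudogenes named -ps. The rule found 87 of 44081 genes, by symbol alone and without use of any measured value. They comprised 3 HSP90 genes, 14 HSP70 and HSP110 genes, 2 mitochondrial chaperonin genes, 8 small heat shock proteins, 45 J proteins (4 of type A, 13 of type B and 28 of type C), 10 CCT chaperonin genes, 4 prefoldin genes and Hspg2. Hspg2 encodes the proteoglycan perlecan and is no chaperone. It was read in 1 soma and entered no test.

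The study cut the dendrites from the soma of single mouse hippocampal neurons with a micropipette and sequenced the RNA of each compartment on its own. The neurons came from C57BL/6 embryos at day 18 and had been in culture for 15 days, without treatment. There were 16 dendrite and 16 soma samples, paired by neuron, so each dendrite sample was compared with the soma of its own cell. Polyadenylated RNA was amplified by aRNA in vitro transcription in 3 rounds for neurons 1 to 4 and in 2 rounds for neurons 5 to 16, the same number in both compartments of a cell. A dendrite sample held the dendrites of 1 cell pulled into a pipette, and the labels do not tie neurons to embryos or cultures, so p-values measure the spread between these cells.

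Chaperones bind unfolded proteins and keep them from clumping while they fold. HSP70 proteins work in cycles of ATP hydrolysis that J proteins start and that HSP110 proteins reset by exchanging the nucleotide, HSP90 acts later on signalling proteins, and the ring-shaped CCT complex folds actin and tubulin handed over by prefoldin. Neurons depend on them far from the nucleus, where HSP70 with its J protein partners strips clathrin from synaptic vesicles and holds release machinery in shape.

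The libraries held 646521 to 6954420 reads on 3′UTRs for dendrites, with 925525 to 21169974 for somas. Dendrites 15 and 16 stood apart, with 1570 and 2485 genes at 10 or more reads against a median of 6053 in dendrites, and with 35.8% and 32.4% of reads on mitochondrially encoded genes. The main counts and the calls that change without them are given both ways. The 5 neuron markers were read in both compartments, with a summed level of 2099 to 9923 CPM (reads scaled to a common library total) in dendrites and 2975 to 7294 CPM in somas. The interneuron markers Gad1 and Gad2 were read in 16 of 16 cells, at a median of 6990 and 2583 CPM in somas. The pyramidal markers Slc17a7, Camk2a, Neurod6 and Grin1 had soma medians of 4.24, 12.3, 14.0 and 43.1 CPM. Summed, these 4 had a median of 203 CPM in dendrites and 106 CPM in somas, and reached 552 and 1929 CPM. Summed microglial markers reached 386 CPM in dendrites and 8.88 CPM in somas, with all 5 at a median of 0 in both, summed astrocyte markers reached 1573 and 514 CPM, summed oligodendrocyte markers 606 and 329.8 CPM and summed endothelial markers 43.7 and 129 CPM. Their part in the results was not tested.

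Fewer chaperone genes were found in a dendrite than in its soma. With detection set at 10 reads, dendrites held 10 to 54 of the 87 genes (40.6 ± 11.6, SD, n = 16) and somas 40 to 68 (59.9 ± 7.69). The difference, dendrite minus soma, was -19.4 ± 12.1 genes, and neuron 5 alone had more in its dendrites. It was -16.3 ± 11.7 when each pair was thinned to equal read numbers, and -16.2 ± 9.13 without neurons 15 and 16. At 1 read or more, 9 members were read in all 16 dendrites and 39 in all 16 somas. Of the 63 members that passed the filter of the compartment test, at least 1 read in 16 of the 32 samples, 30.2% had reads in 15 or 16 dendrites, against 17.1% of all 10880 genes that passed it. The 9 genes with reads in every dendrite were Hsp90ab1, Hspa8, Hspa5, Hspa4l, Hspd1, Hspe1, Dnajb6, Dnajc5 and Dnajc6. They span the cytosol, the endoplasmic reticulum and the mitochondrion, and include Dnajc5 and Dnajc6, which act on synaptic and clathrin-coated vesicles.

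**Figure D1:**
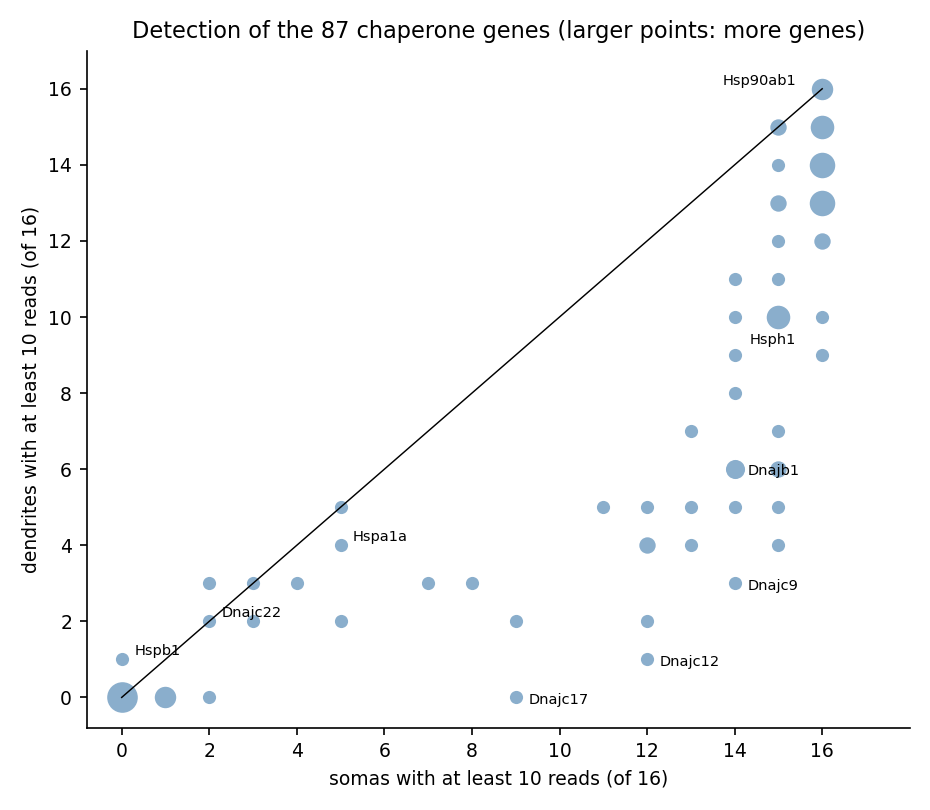
Number of dendrites (vertical axis, of 16) against number of somas (horizontal axis, of 16) with at least 10 reads for each of the 87 chaperone genes, where larger points hold more genes and the line marks equal numbers. Most genes lie below the line, and Dnajc12, Dnajc9 and Dnajc17 lie farthest from it among the named points.

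At the other end, 24 members did not pass the filter, and 5 of these (Cct6b, Cct8l1, Dnajb7, Dnajb8 and Hspb9) had no read in any library. A count of 0 over 150347351 reads allows a level of up to 0.02 CPM for each, for counting error only. The inducible pair Hspa1a and Hspa1b, near-identical copies whose reads cannot be told apart with certainty, was read in 7 and 5 dendrites and in 7 and 6 somas. Hspa1a reached 215 CPM in dendrites and 28.6 CPM in somas, with a median of 0 in both. Hspb1, the small heat shock protein HSP27, was read in 2 dendrites, at up to 24.0 CPM, and in no soma. Hspb8 was read in 2 dendrites and 6 somas. Hspa1a, Hspa1b, Hspb1 and Hspb8, which heat or misfolded protein is known to induce, were at 0 in most libraries of these untreated cells.

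As a share of 3′UTR reads, chaperone RNA was lower in dendrites. A read share or CPM is relative to its own library, so the amount of RNA in a compartment was not measured. The 87 genes took 0.406 to 1.29% of dendrite reads (0.950 ± 0.274%, n = 16) and 1.14 to 2.07% of soma reads (1.66 ± 0.240%). The difference, dendrite minus soma, was -0.711 ± 0.365 percentage points, and -0.653 ± 0.352 without neurons 15 and 16. The share was lower in the dendrites of 15 of 16 neurons, and neuron 2, with 1.25% against 1.14%, was the exception. Dendrite libraries held 2.39 to 35.8% mitochondrially encoded reads and somas 0.277 to 8.13%. With those reads left out of the total, the shares were 1.11 ± 0.241% and 1.70 ± 0.239%, again lower in 15 of 16 dendrites. By family, HSP90 reads made up 0.275 ± 0.129% in dendrites and 0.523 ± 0.182% in somas, CCT reads 0.107 ± 0.0560% and 0.242 ± 0.0661%, and type A J proteins 0.0502 ± 0.0426% and 0.135 ± 0.0364%. Type C J proteins took 0.176 ± 0.0725% and 0.198 ± 0.0386%, mitochondrial chaperonin 0.0532 ± 0.0311% and 0.0505 ± 0.0158%, and prefoldin 0.0272 ± 0.0184% and 0.0254 ± 0.0126%. In these last 3 families the means of both compartments lay within an SD of each other. Differences between families were not tested.

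**Figure D2:**
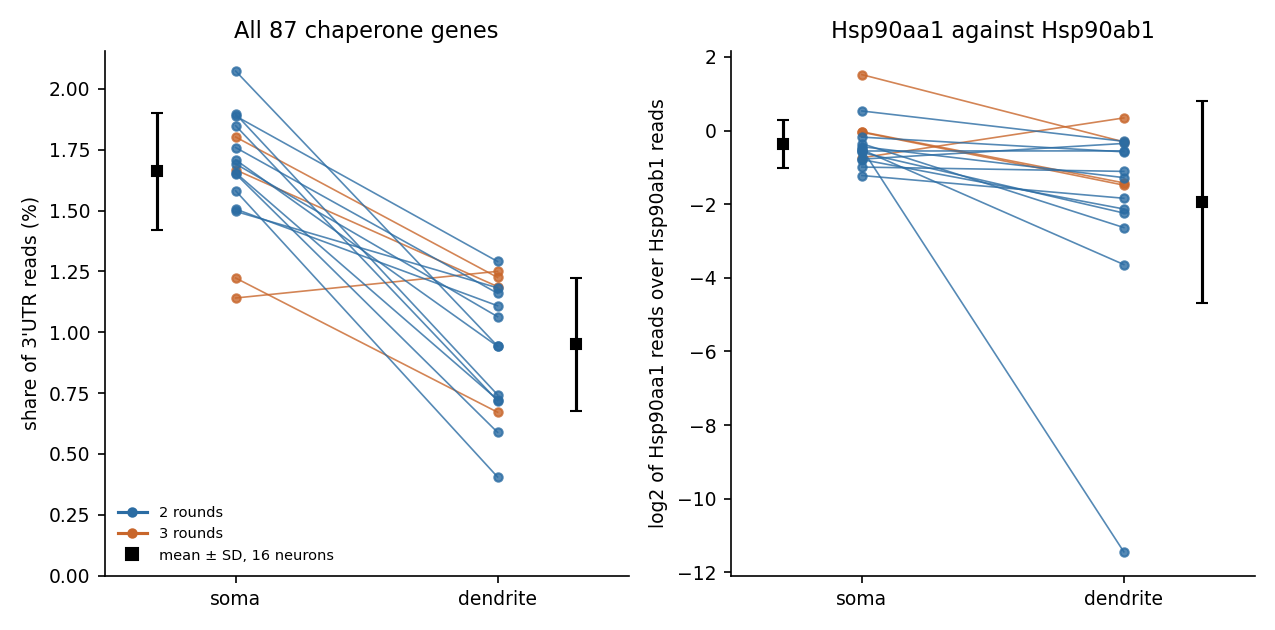
Left, the share of 3′UTR reads (percent) on all 87 chaperone genes in the soma and dendrites of each neuron. Right, the log2 ratio of Hsp90aa1 to Hsp90ab1 reads in the same samples. Lines join a neuron, colours give 2 or 3 rounds of amplification, and squares with bars are the mean ± SD of 16 neurons. The share drops in 15 of 16 neurons and the ratio in 13 of 16, with dendrite 15, which had no Hsp90aa1 read, far below the rest.

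Gene by gene, the paired quasi-likelihood test of edgeR called 7 of the 63 members higher in somas and 0 higher in dendrites at an adjusted p of at most 0.05. The share called higher in somas was 11.1% of the members against 5.71% of all genes tested, and for dendrites the background was 0.827%. The 7 were Hsp90aa1, Hsph1, Dnaja1, Dnajb1, Dnajc9, Dnajc12 and Cct8, drawn from 6 families. At an unadjusted p under 0.05, 27 of the 63 members were higher in somas and 1, Dnajc22, in dendrites. The background was 2901 (26.7%) and 386 (3.55%) of all 10880 genes. Without neurons 15 and 16, 8 of 65 members were called higher in somas, against 190 of all 11309 genes tested. Of the 7 above only Dnajc9 was lost, and Cct6a and Hspa8 were gained. The median log2 fold change, dendrite over soma, was -1.89 for the members and -1.49 for all genes, so values are also given relative to that median gene. Relative to it, 23 of 63 members were higher in dendrites. DESeq2 with the same pairing called 42 of the 63 members higher in somas and 0 in dendrites. Its background was 5029 (46.2%) and 463 (4.26%) of all 10880 genes. When dendrite libraries were rescaled so that the median gene lay near 0, the split turned to 3 members higher in dendrites (Hsp90ab1, Dnajc5 and Dnajc22) and 0 in somas, against 5.04% and 0.846% of all genes. For every member with reads, the ranges of the 16 dendrites and 16 somas overlapped, and the share of all genes whose ranges did not overlap was 0%.

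**Figure D3:**
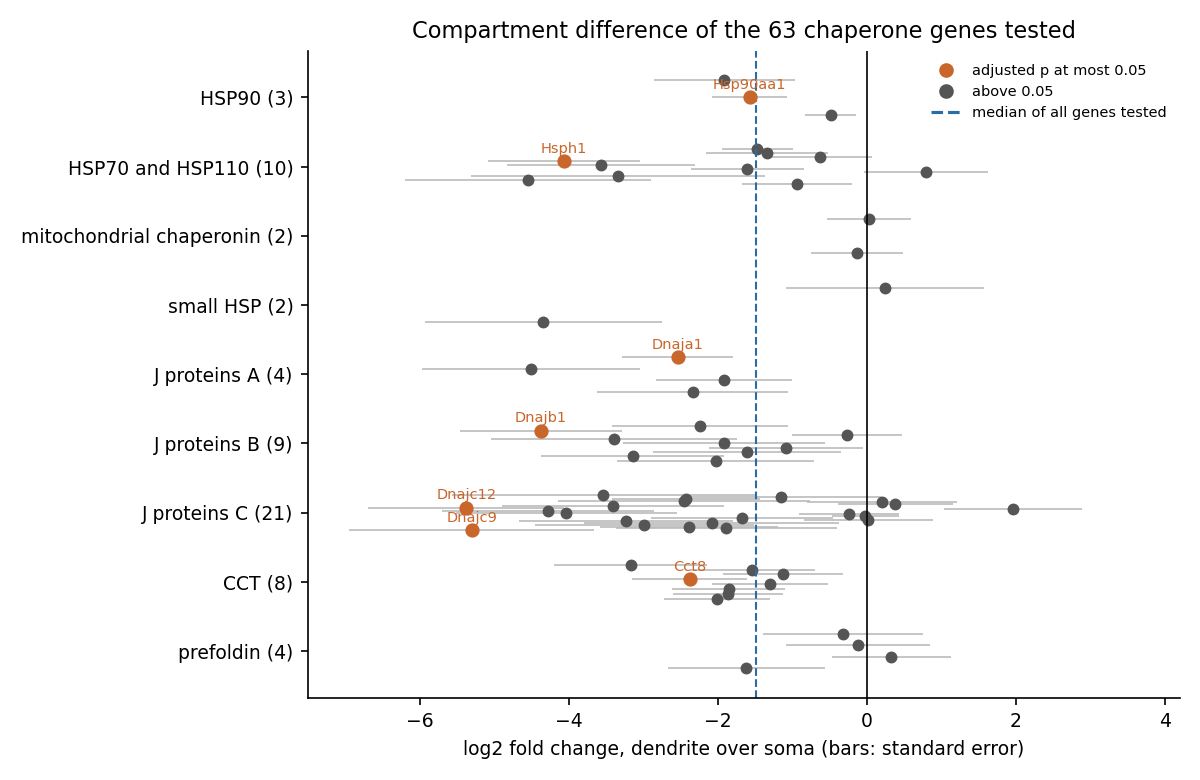
Log2 fold change (dendrite over soma, horizontal axis) of each of the 63 chaperone genes tested, by family, with bars for the standard error. Orange points passed an adjusted p of 0.05, and the dashed line is the median of all genes tested (-1.49). The 7 called genes lie at or left of that line, and both mitochondrial chaperonin genes and 3 of 4 prefoldin genes lie right of it.

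Members listed as heat-inducible were considered first as a group: Hspa1a, Hspa1b, Hsph1, Dnajb1, Hsp90aa1, Hspb1, Hspa8, Dnaja1, Hspe1 and Hspd1. Of the 7 that were tested, 4 were called higher in somas (Hsph1, Dnajb1, Hsp90aa1 and Dnaja1), where 5.71% of all genes were called. Their median log2 fold change was -1.57, which is -0.08 relative to the median gene, with a range of -4.37 for Dnajb1 to 0.03 for Hspe1. The group was therefore spread widely within itself. It includes Hspa8, the constitutive HSP70 (-1.47), and no median was taken without that gene. Within this group Hsph1, Hspd1 and Hspe1 share one feature of promoter sequence, and Dnajb6, outside the group, has it too. Heat shock factors bind arrays of the 5-base unit nGAAn in alternating orientation, and a 3-unit array, GAANNTTCNNGAA or its other strand TTCNNGAANNTTC, was searched in the 300 bases around each start site (RefSeq, GRCm38.p6, 250 before and 50 after). A promoter was at hand for 71 members, and 4 of them (5.63%) held the array, against 0.662% of 27025 genes. A match is a string of letters and not a measured site. The 4 promoters are shown in 30 bases each, 5′ to 3′ on the strand of the gene, with the matched bases in capitals, because the genes that carry it lie at both ends of the range.
Hsph1 (chr5:149636279-149636308, minus strand): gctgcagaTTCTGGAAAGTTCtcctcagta
Dnajb6 (chr5:29735844-29735873, plus strand): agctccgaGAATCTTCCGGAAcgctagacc
Hspd1 (chr1:55088055-55088084, minus strand): gcggggccTTCCGGAAGGTTCTAGAAcgga
Hspe1 (chr1:55088051-55088080, plus strand): acggtccgTTCTAGAACCTTCCGGAAggcc
Hspd1 and Hspe1 stand head to head and share the same stretch, read from opposite strands. In it 2 overlapping matches join into a longer run of capitals. The share of 5.63% counts this stretch for both genes. Of the 4 genes, Hsph1 had a log2 fold change of -4.07, whereas Dnajb6, Hspd1 and Hspe1 had -0.27, -0.13 and 0.03.

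HSP90 was the family in which the paralogs could be set side by side at high read numbers. Hsp90aa1, the inducible cytosolic form (chr12:110690605-110702728, minus strand), had 0, 805 and 1599 CPM in dendrites (lowest, median and highest of 16) and 745, 1962 and 3357 CPM in somas. Dendrite 15 was at 0, 6 dendrites lay below the lowest soma, and the level was higher in the dendrites of neuron 2 alone. Its log2 fold change was -1.57 ± 0.50 (SE), with an adjusted p of 0.0459 (edgeR), 0.08 below the median gene. The call was lost in 6 of 11 alternative settings, with an adjusted p of 0.0606 on exon counts and 0.949 with the median gene set near 0. Hsp90ab1, the constitutive cytosolic form (chr17:45567775-45573271, minus strand), had 711, 1948 and 4453 CPM in dendrites and 399, 2951 and 4934 CPM in somas. No dendrite lay below the lowest soma, and 4 of 16 neurons had the higher level in dendrites. Its log2 fold change was -0.48 ± 0.34 (adjusted p = 0.316), which is 1.01 above the median gene. DESeq2 called it higher in somas (-0.74, adjusted p = 0.0423), and edgeR called it higher in dendrites with the median gene set near 0 (1.01, adjusted p = 0.0457). The scaling of libraries cancels in the ratio of both genes within a library. The log2 ratio of Hsp90aa1 to Hsp90ab1 was -1.93 ± 2.74 (SD) in dendrites and -0.35 ± 0.65 in somas, and it was lower in the dendrites of 13 of 16 neurons. The difference was -1.58 ± 2.71 (two-sided exact sign-flip permutation test over neurons, p = 0.00232, adjusted p = 0.0116 over the 5 pairs of members compared, which were picked with the fold changes known). Without neurons 15 and 16 it was -0.86 ± 1.06 (n = 14, exact permutation adjusted p = 0.0433), and it was -1.81 ± 3.05 in the 12 neurons with 2 rounds and -0.89 ± 1.33 in the 4 with 3. Hsp90b1, the endoplasmic reticulum form GRP94, was at 0, 116 and 294 CPM in dendrites and 23.9, 220.3 and 904 CPM in somas, with a log2 fold change of -1.91 ± 0.95 (adjusted p = 0.164).

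**Figure D4:**
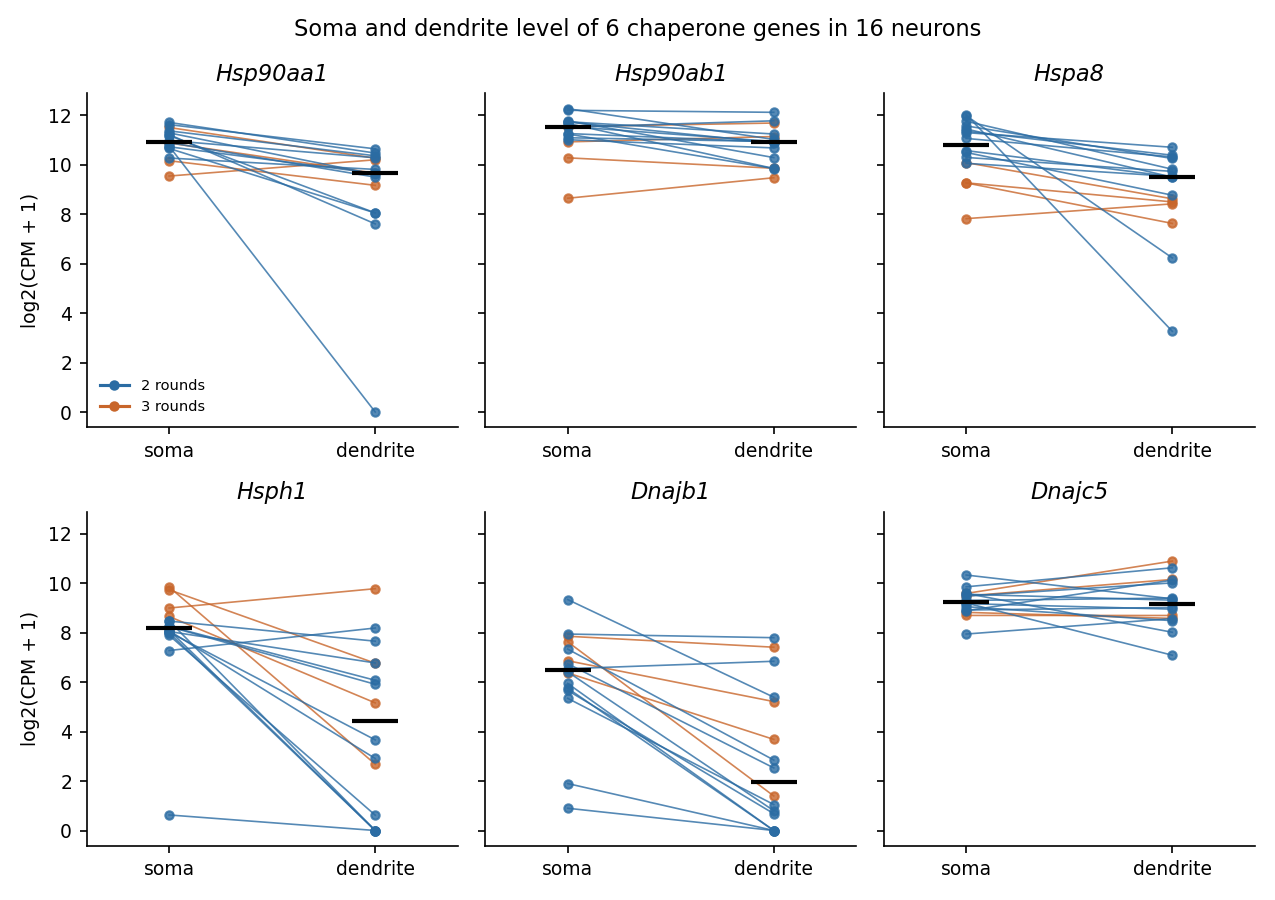
Level in the soma and dendrites of each neuron, as log2(CPM + 1), for 6 chaperone genes, with lines joining a neuron, colours giving 2 or 3 rounds of amplification and black bars the median of 16. Hsph1 and Dnajb1 spread from 0 to over 6 on this scale in dendrites, whereas Dnajc5 and Hsp90ab1 stay in a narrow band in both compartments.

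Among HSP70 and HSP110 genes, 1 of 10 tested was called, against 5.71% of all genes. Hsph1, the HSP110 nucleotide exchange factor (chr5:149614287-149636376, minus strand), had 0, 23.2 and 879 CPM in dendrites and 0.546, 288 and 922 CPM in somas. Dendrites 2 and 10 lay above their somas, and 4 dendrites had no read. Its log2 fold change of -4.07 ± 1.02 (adjusted p = 0.0172) lay 2.57 below the median gene. Hspa8, the constitutive HSP70 that uncoats clathrin (chr9:40800984-40810087, plus strand), had 8.60, 726 and 1670.2 CPM in dendrites and 225, 1832 and 4187 CPM in somas. It was lower in 15 of 16 dendrites, with the lowest value in dendrite 15. Its log2 fold change of -1.47 ± 0.48 just missed the threshold (adjusted p = 0.0516) and sat 0.02 from the median gene. Without neurons 15 and 16, Hspa8 was called higher in somas. Hspa4, another HSP110 relative, had dendrite values of 0, 172 and 1167 CPM and soma values of 72.6, 362 and 812 CPM, and its paralog Hspa4l had 3.83, 224 and 455 CPM against 1.84, 108 and 348 CPM. The medians of the 2 paralogs thus ran in opposite directions, with fold changes of -1.60 ± 0.76 and 0.79 ± 0.83 on the log2 scale (adjusted p = 0.147 and 0.505). The log2 ratio of Hspa4 to Hspa4l was -0.59 ± 3.94 (SD) in dendrites and 2.07 ± 1.73 in somas, lower in the dendrites of 13 of 16 neurons (difference -2.66 ± 3.47, exact sign-flip permutation p = 0.00854, adjusted p = 0.0214). On exon counts that difference was -1.47 ± 4.07 (n = 15, exact permutation adjusted p = 0.301), and the call was lost. The log2 ratio of Hsph1 to Hspa4 fell in the dendrites of 10 of 14 neurons (difference -2.95 ± 4.11, exact permutation p = 0.0198, adjusted p = 0.033). Without neurons 15 and 16 that difference was -2.02 ± 3.59 (n = 12, exact permutation adjusted p = 0.132). Both pairs were picked with the fold changes of these genes known, and the adjustment does not correct for that choice.

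The other HSP70 genes ranged from even to far below. Hspa5, the endoplasmic reticulum HSP70 BiP, had 0.662, 208 and 609 CPM in dendrites and 3.82, 259 and 909 CPM in somas, and was higher in the dendrites of 8 of 16 neurons. Hspa9, the mitochondrial HSP70 mortalin, had medians of 183 and 331 CPM, with a log2 fold change of -0.94 ± 0.73. Hspa12a had medians of 91.4 and 221 CPM. Hspa2, Hspa13 and Hspa14 had dendrite medians of 2.75, 0.558 and 1.07 CPM and soma medians of 20.5, 35.2 and 32.7 CPM, with log2 fold changes of -3.56, -4.55 and -3.34. None of these 6 passed the threshold. Of the small heat shock proteins, 2 of 8 were tested: Hspb6 had a soma median of 2.51 CPM and was at 0 in 12 dendrites (log2 fold change -4.34 ± 1.59, adjusted p = 0.0761), and Hspb11, a subunit of the intraflagellar transport machinery rather than a classic small heat shock protein, had medians of 45.0 CPM in dendrites and 24.0 CPM in somas (0.24 ± 1.32).

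J proteins of types A and B, the close kin of bacterial DnaJ, had fold changes below 0 for all 13 tested, of which 2 type B genes lay above 0 when the median gene was set near 0. Dnaja1, a cytosolic partner of HSP70 (chr4:40722150-40737149, plus strand), had 0, 239.5 and 1048 CPM in dendrites and 509, 908 and 1386 CPM in somas. It was lower in 15 of 16 dendrites, and 12 dendrites lay below the lowest soma. The log2 fold change was -2.54 ± 0.75 (adjusted p = 0.0341). Dnaja2 had medians of 77.0 and 233 CPM (-1.91 ± 0.91), and the log2 ratio of Dnaja1 to Dnaja2 was lower in the dendrites of 7 of 14 neurons and higher in the other 7 (difference -0.77 ± 4.40, exact permutation adjusted p = 0.551). Dnaja3, which is mitochondrial, had medians of 37.4 and 112 CPM (-2.34 ± 1.29), and Dnaja4 of 0 and 22.1 CPM (-4.50 ± 1.46, adjusted p = 0.0512). Dnajb1, HSP40 (chr8:83608193-83612653, plus strand), had 0, 3.21 and 222 CPM in dendrites and 0.866, 88.4 and 648 CPM in somas. It was lower in 15 of 16 dendrites, with neuron 6 the exception. Its log2 fold change was -4.37 ± 1.09 (adjusted p = 0.0168), and it kept an adjusted p of at most 0.05 in 8 of 11 alternative settings, against 3 of 11 for Cct8 and Dnajc9. Dnajb6, which holds back polyglutamine aggregation, stood at the other end of the group, with 2.39, 78.1 and 529 CPM in dendrites and 12.5, 112 and 738 CPM in somas (-0.27 ± 0.74, adjusted p = 0.813). Dnajb9, a stress-induced J protein of the endoplasmic reticulum, had medians of 3.69 and 93.0 CPM (-3.14 ± 1.23), Dnajb12 of 0 and 9.37 CPM (-3.39 ± 1.65), the neuronal Dnajb2 of 24.2 and 65.7 CPM (-1.92 ± 1.35) and Dnajb5 of 2.57 and 7.75 CPM (-1.61 ± 1.26). These 4 did not pass the threshold.

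Type C J proteins share only the J domain and had log2 fold changes from -5.38 to 1.96 among 21 tested. Dnajc5, the cysteine string protein of synaptic vesicles (chr2:181520485-181555133, plus strand), had 135, 577 and 1906 CPM in dendrites and 246, 609.8 and 1289 CPM in somas. It was higher in the dendrites of 8 neurons and in the somas of 8, with a log2 fold change of -0.02 ± 0.45 (adjusted p = 0.981), 1.47 above the median gene. Dnajc6, auxilin, which brings HSP70 to clathrin coats, had 0.742, 296 and 1112 CPM in dendrites and 123, 314 and 536 CPM in somas (-0.24 ± 0.67, adjusted p = 0.816). Dnajc5 and Dnajc6 thus had nearly level medians, while their partner Hspa8 had a dendrite median of 726 CPM against 1832 CPM in somas.

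At the low end, Dnajc12, which assists aromatic amino acid hydroxylases (chr10:63382443-63410576, plus strand), had 0, 0 and 113 CPM in dendrites and 0, 21.2 and 143 CPM in somas, with 9 dendrites at 0. Its log2 fold change was -5.38 ± 1.32 (adjusted p = 0.0159). Dnajc9, a histone chaperone (chr14:20384638-20388910, minus strand), had 0, 0 and 54.8 CPM in dendrites and 0, 10.7 and 287 CPM in somas (-5.30 ± 1.64, adjusted p = 0.0428), and without neurons 15 and 16 its call was lost (-4.58, adjusted p = 0.131). Both fold changes rest on dendrites at 0 and depend on the prior count of the model. Dnajc30 had medians of 0.866 and 28.5 CPM (-4.28 ± 1.42, adjusted p = 0.0557) and Dnajc7, a co-chaperone that binds both HSP70 and HSP90, of 4.46 and 28.7 CPM (-3.23 ± 1.44, adjusted p = 0.126). Dnajc22 had the highest fold change of the members at 1.96 ± 0.93 (adjusted p = 0.148), but its levels were low, up to 17.1 CPM in dendrites and 12.2 CPM in somas. Dnajc27, which carries a small GTPase domain, and Dnajc19, a part of the mitochondrial import motor, had medians of 137 and 63.9 CPM in dendrites against 166 and 36.4 CPM in somas (0.38 ± 0.77 and 0.21 ± 1.00). Reads of Dnajc19 may be mixed with those of its pseudogene row, which held 11.2% as many reads; the other pseudogene rows held at most 1.48% as many as their parent genes.

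The CCT chaperonin is built from 8 different subunits in one ring, and all 8 genes had log2 fold changes below 0, between -3.17 and -1.13 with a median of -1.86, 0.37 below the median gene. With the median gene set near 0, 2 of the 8 lay above 0. Cct8 alone was called with all 16 neurons in the fit (chr16:87483326-87495873, minus strand). It had 0, 85.2 and 257 CPM in dendrites and 34.9, 342 and 521 CPM in somas and was lower in the dendrites of 16 of 16 neurons (-2.38 ± 0.77, adjusted p = 0.0491). Cct7 had 0, 49.4 and 158 CPM against 56.2, 209.9 and 363 CPM and was lower in 15 of 16 dendrites (-3.17 ± 1.03, adjusted p = 0.0507). Cct6a had medians of 151 and 474 CPM (-2.01 ± 0.71, adjusted p = 0.0689). Without neurons 15 and 16, Cct6a was called higher in somas (edgeR, -1.60, adjusted p = 0.0447). Cct2 had medians of 83.9 and 281 CPM (-1.86 ± 0.74) and Cct3 of 72.0 and 272 CPM (-1.85 ± 0.76). Tcp1, the first subunit, had medians of 87.2 and 221 CPM (-1.53 ± 0.84), Cct4 of 117 and 259 CPM (-1.30 ± 0.78) and Cct5 of 106 and 214 CPM (-1.13 ± 0.80). Every subunit had its lower median in dendrites, whether or not it was called.

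Prefoldin, the jawed hexamer that hands actin and tubulin to CCT, had 3 of 4 genes with fold changes near 0. Pfdn5 had 0, 86.0 and 336 CPM in dendrites and 18.8, 69.1 and 206 CPM in somas (0.33 ± 0.80, adjusted p = 0.785) and was higher in the dendrites of 10 of 16 neurons. Pfdn2 had medians of 57.9 and 55.2 CPM (-0.12 ± 0.97), Pfdn1 of 50.7 and 56.1 CPM (-0.32 ± 1.07) and Pfdn4 of 12.9 and 30.0 CPM (-1.62 ± 1.05). None of the 4 passed the threshold, and 3 lay above the median gene, with a family median 1.27 above it. Vbp1, the prefoldin 3 subunit, which the symbol rule leaves out, had medians of 59.7 CPM in dendrites and 191 CPM in somas (-2.65 ± 0.99, adjusted p = 0.0785), so the even values did not extend to each subunit.

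The mitochondrial chaperonin folds matrix proteins inside a barrel, and both of its genes had fold changes near 0. Hspd1, HSP60, had 1.20, 191 and 1375 CPM in dendrites and 23.7, 239.6 and 402 CPM in somas (-0.13 ± 0.61, adjusted p = 0.893). Hspe1, its lid HSP10, had 81.7, 237 and 1058 CPM in dendrites and 132, 258 and 521 CPM in somas (0.03 ± 0.56, adjusted p = 0.976). The log2 ratio of Hspd1 to Hspe1 was -0.67 ± 2.27 in dendrites and -0.32 ± 1.29 in somas, lower in the dendrites of 7 of 16 neurons (exact permutation adjusted p = 0.551). Grouped by the place of the protein, 9 mitochondrial members had a median log2 fold change of -0.94, 0.56 above the median gene, with 0 called. The 11 members of the endoplasmic reticulum had -2.39, 0.89 below it, with 0 called by edgeR, 5 at an unadjusted p under 0.05 and 9 called by DESeq2, all higher in somas. For the mitochondrial members those counts were 1 and 2, and of all genes 26.7% had such a p and 46.2% were called by DESeq2. The direction of the mitochondrial list turned with the scaling, from -0.94 to 0.56 when the median gene was set near 0, while the list of the endoplasmic reticulum kept a median below 0 (-0.90). On exon counts the latter lay only 0.24 below the median gene.

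Other genes of the folding pathway were counted from fixed lists. Of 35 heat shock factors and co-chaperones, 33 were tested, 2 were called higher in somas (Ttc4 and Bag2), close to the 5.71% of all genes, and 0 in dendrites, with a median of -2.31. Ttc4, an adaptor of HSP70 and HSP90, had medians of 0.1 CPM in dendrites and 72.6 CPM in somas (-6.54 ± 1.52, adjusted p = 0.0127). Hsf1, the main heat shock factor, had medians of 0 and 7.63 CPM (-3.95 ± 1.80, adjusted p = 0.135), and Stip1, which links HSP70 to HSP90, had 23.8 and 112 CPM (-2.68 ± 1.00, adjusted p = 0.0788). Of 11 endoplasmic reticulum folding genes, 8 were tested and 2 were called higher in somas, the disulphide enzymes Ero1l and Pdia3, with a list median of -1.94. Of 10 stress-induced regulators, 7 were tested and 0 were called. Of the 7, 1 had an unadjusted p under 0.05 (Atf4) and 3 were called by DESeq2, all higher in somas. For all genes these shares were 26.7% and 46.2%. The list median was -0.10, 1.39 above the median gene.

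The number of amplification rounds was tested as a term of the model. No member had a compartment effect that differed between 2 and 3 rounds (edgeR, 0 of 63 at an adjusted p of at most 0.05, against 0% of all genes), and 4 had an unadjusted p under 0.05 (Hspa14, Dnajb9, Dnajc13 and Dnajc4), against 2.65% of all genes. Dnajb9 showed a log2 fold change of -5.09 ± 1.70 in neurons with 2 rounds and 0.38 ± 1.01 in those with 3. Within 12 neurons of 2 rounds the members had a median log2 fold change of -2.16 against -1.70 for all genes. Of 64 members, 2 were called higher in somas, Dnajb1 and Dnajc12, against 306 of all 10642 genes. Within 4 neurons of 3 rounds the medians were -0.64 and -0.62 and 0 members were called. Of all 13186 genes there, 1 was called higher in somas and 3 in dendrites. Hsph1 had -4.52 ± 1.42 and -3.09 ± 0.85 in these sets, Hsp90aa1 -1.89 ± 0.61 and -0.59 ± 0.52, and Hspe1 -0.21 ± 0.78 and 1.04 ± 0.70.

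Use of alternative 3′ ends was compared as the share of a gene's reads on the higher-numbered of its most used pair of 3′ ends, counted in the last 500 nt of each. The feature numbers come without coordinates, so which end is distal was not assigned. Of 33 members with enough reads, 2 had a signed-rank p under 0.1, or 6.06%, against 8.4% of 3522 genes, a share near the background, and 0 passed an adjusted threshold. Hspa8 had the smaller p. Its share of reads on the second end was 0, 5.13 and 11.5% in dendrites and 0.37, 8.55 and 14.4% in somas, and it was lower in the dendrites of 15 of 16 neurons, with neuron 11 the exception. The mean difference was -2.50 ± 1.88 percentage points (exact signed-rank permutation p = 0.000305, adjusted p = 0.287 over all genes). The level of this share differed with the rounds of amplification. In somas it was 0.37 to 2.89% with 3 rounds and 4.61 to 14.4% with 2, and in dendrites 0 to 1.61% and 0 to 11.5%. Within 2 rounds alone the means were 6.74 ± 3.37% in dendrites and 9.85 ± 3.11% in somas (exact permutation p = 0.00146, n = 12). Dendrite 15 had only 13 such reads. For Hsp90aa1 the share on end 4 was 46.4 ± 21.6% in dendrites and 56.6 ± 13.0% in somas (15 neurons, lower in the dendrites of 10, exact permutation p = 0.0554, adjusted p = 0.953).

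**Figure D5:**
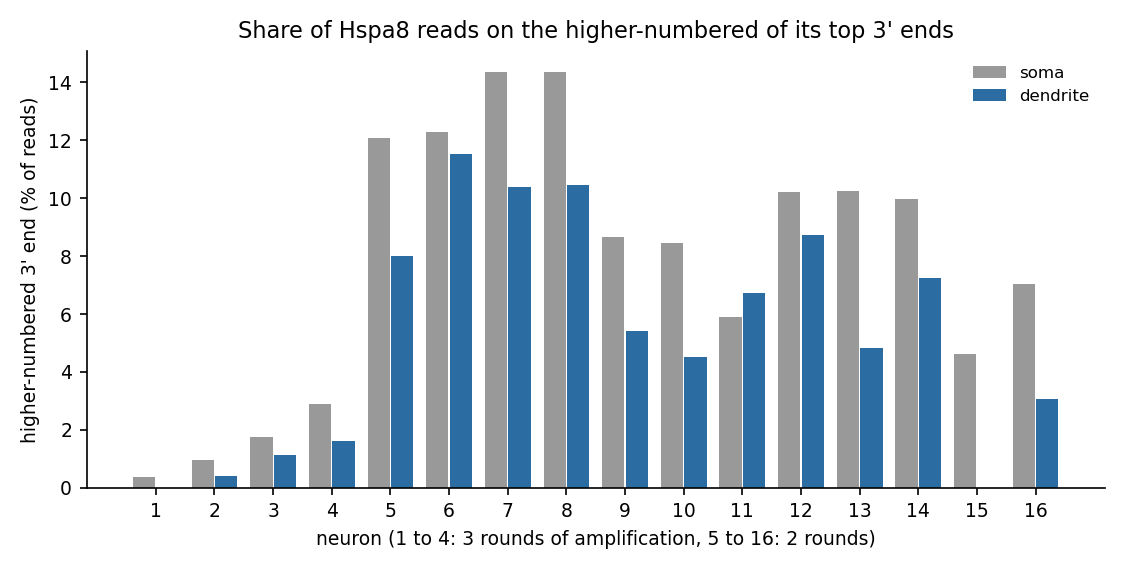
Percent of Hspa8 reads on the higher-numbered of its most used pair of 3′ ends in the soma (grey) and dendrites (blue) of each of 16 neurons. The dendrite bar is the lower in every neuron but neuron 11, and neurons 1 to 4, with 3 rounds of amplification, lie below 3% in both compartments.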

How the data were processed

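The deposited files hold read counts, which the authors made by trimming adapters and poly-A, aligning to mm10 with STAR 2.4.0 (version and build from the submitters' processing notes) and counting uniquely mapped reads with VERSE on 3′UTRs merged per gene, on the final 500 nt before every 3′ end and on exons. Counts carry no molecular identifiers, so the upper limit given for genes without reads covers counting error only. Genes read in 16 or more of the 32 samples were tested in edgeR 4.0.16 (TMM, quasi-likelihood, robust) on R 4.3.3, with the neuron as a block, since both compartments came from the same cell, and Benjamini-Hochberg adjustment over all 10880 genes. Levels are CPM with TMM library sizes. Between compartments of a neuron, deviations from the group mean correlated at 0.0886 ± 0.0771 (n = 16), against -0.00561 between neurons. No libraries held identical values. DESeq2 1.42.0 was an alternative. The 3′ end test was an exact signed-rank test over genes with at least 10 reads on the 2 ends together in both compartments of at least 5 neurons. Ratios of members used 0.5 added reads. Coordinates are from GENCODE on GRCm38, the same assembly as mm10, and promoters from RefSeq.

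The members and gene lists were chosen with earlier results of these data known. Genes were named by rule: all HSP90, CCT and prefoldin genes, a list of HSP70, HSP60 and J protein genes of known function, each called gene and, per family, the 3 smallest p-values in each direction. Dnajc13, Dnajc4, Dnajc15 and Dnajc17, and genes named as 0 or as pathway examples, were named after their values were seen. On simulated data for this comparison (9897 genes), edgeR called 61 of the 172 tested genes that were changed by 4 on the log2 scale, each with the correct sign, and called 0 of 9725 left unchanged.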

Additional observations from a re-analysis of the deposited data

Results flagged for a closer look

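In 1 of 3 groups of 4 values looked at, a neuron stood apart: among neurons amplified in 3 rounds, neuron 2 had a chaperone share of reads 0.11 percentage points higher in dendrites than in its soma, whereas dendrite minus soma was -0.577 to -0.48 points in the other 3. Chance flags about 1 in 20 such groups. Dendrite 2 had 646521 reads on 3′UTRs and soma 2 had 925525, the fewest of their compartments, and 2.39% of the dendrite reads were mitochondrially encoded, the lowest share among dendrites. The part of these values in the result was not tested.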

How the results depend on the processing

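Each processing choice was changed in turn. The count of chaperone genes called higher in somas, 7 in the report, was 5 on exon counts and 8 without neurons 15 and 16, an alternative chosen after seeing the data. It moved to 13 with RLE size factors, 11 without neuron 5, 4 with no filter beyond 1 read, 2 with at least 10 reads in 16 samples, 2 with 2 rounds alone, 0 with 3 rounds alone (4 neurons), 42 with DESeq2 and 0 with the median gene near 0. Without pairing by neuron (no replicate block) it was 1, Hspa8. Among all genes, those called higher in somas moved too, from 621 of 10880 to 257 of 9804 on exon counts. They numbered 190 of 11309 without neurons 15 and 16, 1008 with RLE size factors and 967 without neuron 5. They were 143 of 31102 with no filter beyond 1 read and 181 of 7109 with at least 10 reads in 16 samples. They were 306 with 2 rounds, 1 with 3 rounds, 5029 with DESeq2, 92 with the median gene near 0 and 77 without the block. The count of chaperone genes called higher in dendrites was 0 in each setting except with the median gene near 0, where it was 3. There Dnajc5 and Hsp90ab1 reversed to log2 fold changes of 1.47 and 1.01 (adjusted p = 0.0319 and 0.0457, edgeR), whereas DESeq2 called Hsp90ab1 higher in somas. The median gene, at -1.49 in the report, moved by 0.246 with RLE, by 1.45 with the rescaling, by 1.32 with no filter beyond 1 read and by 1.27 without the block, where it lay at -0.22 and the members at -0.64. The causes were not tested. Over 522 fits of named genes, 440 kept their side of the threshold, 38 lost a call, 42 gained one and 2 reversed, and 52 of those uncalled in both had the other sign. The per-neuron median of the members relative to the median gene was -0.67 ± 1.03 (15 of 16 below 0), between -0.88 and -0.07 over the alternatives, the latter with 3 rounds alone, and was -0.40 ± 0.53 without neurons 15 and 16. The rounds and 3′ end counts stayed at 0 and 2.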
